A study of Homo sapiens with 6 samples.

Results

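Respiratory complex I is described here through 44 genes, the rows of the table whose own name is NDUF followed by A, AB, AF, B, C, S or V and a number, out of 26906 rows in all. The rule goes by name alone and uses no measured value, but the members were chosen with earlier results of these data known. The cells were BE-(2)-C, a line from a human neuroblastoma with amplified MYCN, and RNA was taken 48 hours after treatment with ELF4 siRNA (3 libraries) or with control siRNA (3 libraries). Per the labels, both groups were the same line, grown in DMEM/F12 with serum, and differed in the siRNA alone. The labels give neither the siRNA sequences nor how many were used against ELF4, and they do not say whether the libraries came from separate cultures. P-values therefore rest on a spread between libraries that could be purely technical. Levels are normalised read counts per gene, given as the mean ± SD over 3 libraries, and changes are log2 fold changes, ELF4 siRNA over control.

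Complex I is the entry point of the mitochondrial respiratory chain. It oxidises NADH in an arm that reaches into the matrix, passes the electrons along iron-sulfur clusters to ubiquinone, and pumps protons through an arm buried in the inner membrane. Core subunits carry out catalysis and are encoded in part by the mitochondrial genome, while accessory subunits, all encoded in the nucleus, surround and stabilise them. Assembly factors help to build the complex from modules and are absent from the finished enzyme.

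The libraries held 23770924 to 25408746 recovered reads after ELF4 siRNA and 23148635 to 38097986 after control siRNA, and the members took 0.326% to 0.330% and 0.331% to 0.342% of them. ELF4, the targeted gene, had 5.51, 5.61 and 3.10 normalised reads after ELF4 siRNA, against 42.4, 38.8 and 46.8 after control siRNA (log2 fold change -2.96, limma adjusted p = 5.38e-07). The groups did not overlap, and a two-sided exact permutation test reached p = 0.1, the lowest value possible with 3 libraries per group. All 10 listed markers of neuroblastoma had a mean of at least 10, with a summed level of 243100 to 263185 after ELF4 siRNA and 209300 to 223655 after control siRNA. Of the other marker lists, 7 of 8 fibroblast genes reached that mean (summed level 8101 to 8711 and 9158 to 9358), as did 4 of 6 Schwann genes (1253 to 1303 and 632 to 672), 4 of 6 epithelial genes (192 to 232 and 231 to 249) and 2 of 8 blood and endothelial genes (34.1 to 48.3 and 51.4 to 63.1). The markers with the smallest adjusted p in each list moved in both directions. CHGA (log2 fold change 0.55) and CHGB (0.50) of neuroblastoma were higher, as were DCN (0.83) of fibroblasts, PMP22 (1.26) and S100B (0.51) of Schwann cells, KRT19 (0.50) of epithelium and PTPRC (1.06) of blood. PDGFRB (-1.19) of fibroblasts, CLDN4 (-1.08) of epithelium and CD14 (-1.24) of blood were lower. Of the 10 neuroblastoma markers, 3 were higher and 3 lower at a limma adjusted p under 0.05. Besides CHGA and CHGB these were HAND2 (0.44), ISL1 (-0.16), DBH (-0.17) and MYCN (-0.14). Of the 4 tested Schwann markers, 2 were higher and 1 was lower, GFAP (-0.47). The shares over all rows tested were 20.7% higher and 24.4% lower. No listed marker with a row was at 0 in every library, and CD3E, CD68, PECAM1 and HBB were among those with no row of their own. All libraries were of the same line, so these values do not show that cells of the other listed types were present. The part of these markers in the results below was not tested. In bulk RNA, fewer cells that express a gene and less RNA per cell cannot be told apart.

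Most complex I genes changed little. Of the 43 members tested, 6 rose and 10 fell at a limma adjusted p under 0.05, which is 37.2% of them, and 27 did not pass. Over all 20339 rows tested the same rule called 45.1%, with 20.7% higher and 24.4% lower. The members' median log2 fold change was -0.04 and their median absolute change 0.11, against -0.0042 and 0.22 over all rows. Among rows with a mean of at least 100, fitted on their own, 59.6% were called, and 17 of 42 members (40.5%). ELF4 siRNA and control libraries were fully separated in 21 of the 43 members (48.8%), against 53.6% of all rows, and the 16 called members were among these 21. Scaled by the upper quartile of each library, 14 members rose and 7 fell, and the median log2 fold change of all rows moved by 0.0864. Of the 26 members that did not pass, leaving aside NDUFA11, 18 had a 95% interval within 0.2 of zero on the log2 scale, and the widest bounds were -0.30 and 0.25.

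**Figure D1:**
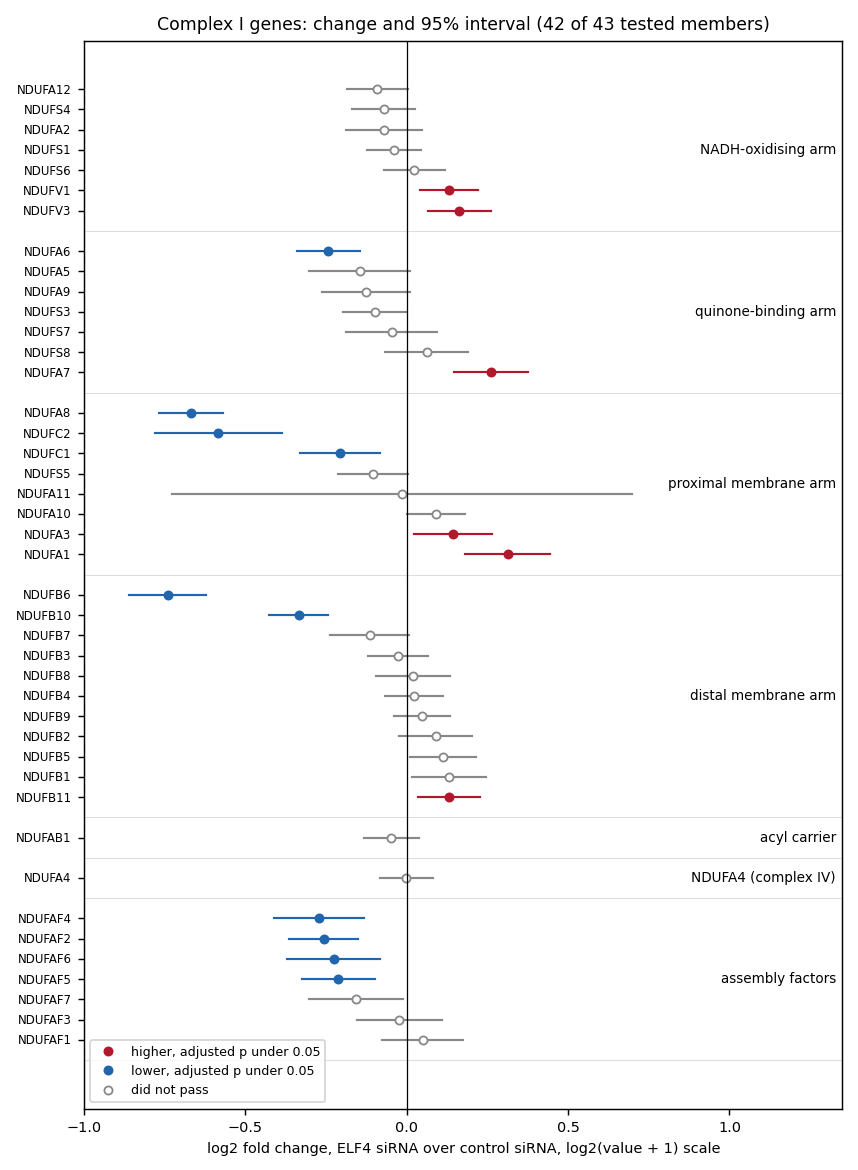
Log2 fold change, ELF4 siRNA over control (x axis), for 42 of the 43 tested complex I genes, grouped by the part of the complex they belong to. Points are limma estimates, lines are 95% intervals, filled points passed an adjusted p of 0.05. NDUFB6 (-0.74), NDUFA8 (-0.67) and NDUFC2 (-0.58) lie apart from the other members, which lie between -0.34 and 0.31. All values are of rows with the gene name alone. For NDUFC2 that row holds 28.2% of its reads, and its rows summed give -0.22.

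The membrane arm held both the largest falls and the largest rise. In its proximal part, next to the matrix arm, 3 of 8 tested members fell and 2 rose, and in its distal part 2 of 11 fell and 1 rose. The shares over all rows tested were 24.4% lower and 20.7% higher, and these counts are too small to set apart from them. The proximal counts include the own rows of NDUFC2 and NDUFA11, which hold 28.2% and 0.341% of the reads of these genes. With upper-quartile scaling, 2 fell and 3 rose in the proximal part, and 2 fell and 6 rose in the distal part. NDUFB6, an accessory subunit of the distal part, had 1219, 1131 and 1146 normalised reads after ELF4 siRNA, against 2041, 1805 and 2008 after control siRNA. Every ELF4 siRNA library was below every control library, and the mean was 1166 ± 47.2 against 1951 ± 128 (log2 fold change -0.74, SE 0.06, limma adjusted p = 1.49e-07). NDUFA8, an accessory subunit of the proximal part that faces the intermembrane space, had 1299, 1296 and 1243 normalised reads after ELF4 siRNA, against 2006, 2116 and 1984 after control siRNA. The 3 ELF4 siRNA libraries lay close together and well below the controls (1279 ± 31.5 against 2035 ± 70.4, log2 fold change -0.67, SE 0.05, limma adjusted p = 7.40e-08). The levels of NDUFB6 and NDUFA8 after ELF4 siRNA were 59.7% and 62.9% of their control means.

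NDUFB10, a further accessory subunit of the distal part, had 2080, 2112 and 1975 normalised reads after ELF4 siRNA, against 2606, 2586 and 2586 after control siRNA. The control libraries were nearly equal and all above the ELF4 siRNA libraries (log2 fold change -0.34, SE 0.04, limma adjusted p = 2.15e-05). NDUFB10 and NDUFA8 belong to the complex I subunits with paired cysteine motifs that are folded by the oxidative import machinery of the intermembrane space. The other 2 genes of that list did not pass. NDUFB7 had a log2 fold change of -0.12 (adjusted p = 0.116) and NDUFS5 of -0.10 (adjusted p = 0.107). CHCHD4, the oxidoreductase of this import route, fell (log2 fold change -0.28, adjusted p = 0.00763), while its partner AIFM1 had 0.09 and did not pass (adjusted p = 0.08).

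The rises in the membrane arm were smaller. NDUFA1, a small accessory subunit of the proximal part encoded on the X chromosome, had 1840, 2044 and 2131 normalised reads after ELF4 siRNA, against 1719, 1506 and 1614 after control siRNA. The groups did not overlap, although the nearest libraries, at 1840 and 1719, were close (log2 fold change 0.31, SE 0.06, limma adjusted p = 0.000824). NDUFA3, also of the proximal part, had 1049, 1062 and 1018 normalised reads after ELF4 siRNA, against 965, 878 and 993 after control siRNA. Its adjusted p of 0.0496 (log2 fold change 0.14) is next to the threshold and was lost in 8 of the alternatives. NDUFB11, an X-linked subunit of the distal part, rose to 3463 ± 105 after ELF4 siRNA, against 3161 ± 135 after control siRNA (log2 fold change 0.13, adjusted p = 0.0265). The NDUFB11 call was lost without ELF4 siRNA replicate 2 or 3 or control replicate 3 (adjusted p = 0.0837, 0.0658 and 0.146). It was also lost with limma without trend (adjusted p = 0.107). The remaining distal subunits NDUFB1, NDUFB2, NDUFB3, NDUFB4, NDUFB5, NDUFB8 and NDUFB9 did not pass, with log2 fold changes of -0.03 to 0.13. Of these, NDUFB1, NDUFB2, NDUFB4, NDUFB5 and NDUFB9 passed as higher with upper-quartile scaling, and NDUFB1 (0.13, adjusted p = 0.0617) passed in 6 of the alternatives, edgeR among them. The own row of NDUFB5 (0.11) holds 46.8% of its reads. Its row of joined names had a log2 fold change of -0.16 and its rows summed -0.035, and neither passed. NDUFA10, an accessory subunit of the proximal part, had 3908 normalised reads after ELF4 siRNA and 3668 after control siRNA and missed the threshold (log2 fold change 0.09, adjusted p = 0.0907).

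**Figure D2:**
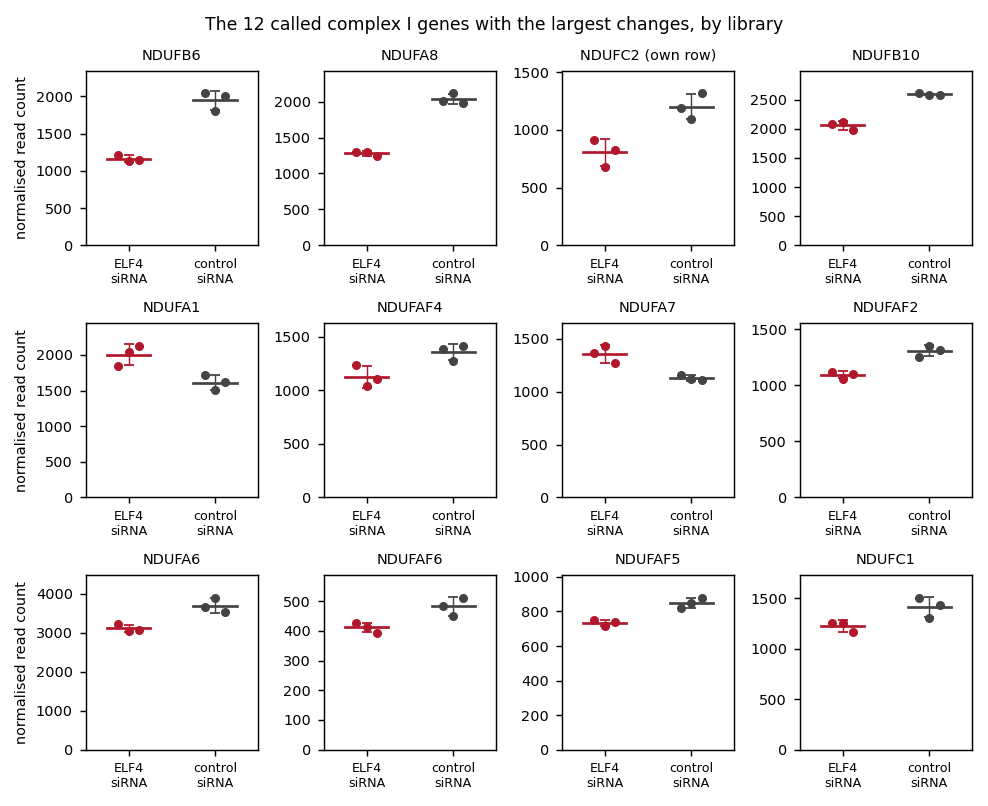
Normalised read count (y axis, from 0) in each of the 3 ELF4 siRNA libraries (left) and 3 control siRNA libraries (right) for the 12 called members with the largest changes. Horizontal lines are means and whiskers SD. NDUFA1 (2005 against 1613) and NDUFA7 (1357 against 1132) are higher after ELF4 siRNA and the other 10 are lower, with no overlap between the groups in any panel.

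Promoter sequences from RefSeq (GRCh38.p14) were available for 37 of the 44 members, each with 250 bases before and 50 bases after an annotated start. They were searched on both strands for 3 letter strings that stand for the ETS family (CCGGAAG), to which ELF4 belongs, for NRF1 (GCGCATGC), a regulator of many respiratory genes, and for YY1 (AAGATGGCG). The ETS string was present in 5 of 37 members (13.5%) and in 16.5% of 15843 protein-coding genes. The NRF1 string was present in 8 members (21.6%) and in 4.89% of protein-coding genes, and the YY1 string in 6 members (16.2%) and in 3.21%. The NRF1 string occurred in 4 of the 8 members that fell and have a sequence (NDUFA8, NDUFA6, NDUFAF4 and NDUFAF5), in 0 of 6 that rose and in 4 of 22 that did not pass. The ETS string occurred in 1 of 8 that fell (NDUFAF4), 1 of 6 that rose (NDUFA1) and 3 of 22 that did not pass. A match describes letters and does not show that a factor binds. Stretches are shown for the 2 largest falls, for 3 further members that fell and whose promoters hold the NRF1 string, and for the largest rise. In NDUFAF4 the NRF1 string lies outside the stretch shown. NDUFB10, NDUFAF2 and NDUFC1, which also fell, hold none of the searched strings and are not shown, so the stretches are not typical of the members that fell. Each stretch is 60 bases, 5′ to 3′ on the strand of the gene, with the searched strings in capitals.
NDUFB6 (chr9:32573160-32573219, minus strand, no match): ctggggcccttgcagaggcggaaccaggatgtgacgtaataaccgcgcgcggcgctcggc
NDUFA8 (chr9:122159765-122159824, minus strand, NRF1 string on both strands): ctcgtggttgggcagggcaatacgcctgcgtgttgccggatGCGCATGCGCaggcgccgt
NDUFAF5 (chr20:13784983-13785042, plus strand, NRF1 string on both strands): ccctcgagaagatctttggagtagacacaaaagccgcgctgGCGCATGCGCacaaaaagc
NDUFAF4 (chr6:96898009-96898068, minus strand, ETS string): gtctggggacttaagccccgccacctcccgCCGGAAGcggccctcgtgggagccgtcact
NDUFA6 (chr22:42090909-42090968, minus strand, NRF1 string): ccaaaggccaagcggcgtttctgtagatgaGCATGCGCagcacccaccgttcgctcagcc
NDUFA1 (chrX:119871755-119871814, plus strand, ETS string): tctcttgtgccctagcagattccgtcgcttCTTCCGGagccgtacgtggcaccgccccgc

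In the arm that binds ubiquinone, 1 of 8 members fell and 1 rose, or 2 rose with upper-quartile scaling. The shares over all rows tested were 24.4% lower and 20.7% higher. NDUFA6, an accessory subunit at the joint of the arms that binds the acyl carrier protein, had 3211, 3052 and 3080 normalised reads after ELF4 siRNA, against 3656, 3893 and 3519 after control siRNA. All ELF4 siRNA libraries were lower (log2 fold change -0.24, SE 0.05, limma adjusted p = 0.000597). A row for the antisense gene NDUFA6-AS1 rose to 326 ± 25.5 after ELF4 siRNA, against 241 ± 20.9 after control siRNA (log2 fold change 0.44, adjusted p = 0.000768). Since no strand setting is stated, reads of NDUFA6 and its antisense partner cannot be told apart where they overlap. NDUFA7, a neighbouring accessory subunit, had 1363, 1437 and 1272 normalised reads after ELF4 siRNA, against 1163, 1124 and 1110 after control siRNA, all higher after ELF4 siRNA (log2 fold change 0.26, SE 0.05, limma adjusted p = 0.00118). The core subunits NDUFS3, NDUFS7 and NDUFS8, of which NDUFS7 and NDUFS8 hold iron-sulfur clusters, did not pass. NDUFS3 had a log2 fold change of -0.10 (95% interval -0.20 to 0.00111), NDUFS7 of -0.05 (-0.19 to 0.09) and NDUFS8 of 0.06 (-0.07 to 0.19). The accessory subunit NDUFA5 did not pass (log2 fold change -0.15, adjusted p = 0.12). It passed as lower with a replicate block (limma adjusted p = 0.00418) and without control replicate 2 (-0.24, limma adjusted p = 0.00499). NDUFA9, also accessory, did not pass in its own row (-0.13, adjusted p = 0.126).

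In the arm that oxidises NADH, 0 of 7 tested members fell and 2 rose, where 24.4% of all rows tested were lower and 20.7% higher. NDUFV1, the core subunit that binds NADH and the flavin, had 5268, 5578 and 5188 normalised reads after ELF4 siRNA, against 4884, 4999 and 4749 after control siRNA. The groups did not overlap (log2 fold change 0.13, SE 0.04, limma adjusted p = 0.0188), but the adjusted p was 0.0834 when ELF4 siRNA replicate 2 was left out, 0.0589 without control replicate 1 and 0.0858 without control replicate 3. With limma without trend the adjusted p was 0.0933. NDUFV3, an accessory subunit beside it, had 1692, 1750 and 1667 normalised reads after ELF4 siRNA, against 1525, 1564 and 1476 after control siRNA (log2 fold change 0.16, SE 0.05, adjusted p = 0.00967), and was lost without control replicate 3 (0.0529). NDUFS1, the core subunit that carries several iron-sulfur clusters, had 4362, 4110 and 4177 normalised reads after ELF4 siRNA, against 4342, 4312 and 4349 after control siRNA. The groups overlapped, with a log2 fold change of -0.04 (95% interval -0.12 to 0.04). NDUFA2, NDUFA12, NDUFS4 and NDUFS6 did not pass either, with log2 fold changes of -0.09 to 0.02.

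NDUFAB1 and NDUFA4 stood outside these arms. NDUFAB1 encodes the mitochondrial acyl carrier protein, which serves fatty acid synthesis and is also a subunit of the complex. It had 3791, 3871 and 3982 normalised reads after ELF4 siRNA, against 3994, 4080 and 3960 after control siRNA, and did not pass (log2 fold change -0.05, 95% interval -0.13 to 0.04). NDUFA4 keeps its complex I name although its protein is now counted as a subunit of complex IV. It had the most reads of the members, with 7989, 8308 and 7886 after ELF4 siRNA and 8132, 8172 and 7898 after control siRNA, and its interval was narrow (log2 fold change -0.0013, 95% interval -0.08 to 0.08).

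Of the 7 NDUFAF assembly factors 4 fell and 0 rose, the other 3 did not pass, and the median log2 fold change of the 7 was -0.21. For comparison, 24.4% of all rows tested fell and 20.7% rose, and 7 genes are few to set beside these shares. NDUFAF4, which works with NDUFAF3 on the quinone arm, had 1236, 1035 and 1102 normalised reads after ELF4 siRNA, against 1379, 1273 and 1415 after control siRNA (log2 fold change -0.27, adjusted p = 0.0035). NDUFAF2, a chaperone related to NDUFA12 that acts late in assembly, had 1120, 1057 and 1105 normalised reads after ELF4 siRNA, against 1255, 1355 and 1315 after control siRNA (log2 fold change -0.26, adjusted p = 0.000767). In both genes all ELF4 siRNA libraries were below all controls, and the nearest NDUFAF4 libraries, at 1236 and 1273, were close. NDUFAF5, which modifies an arginine of NDUFS7, had 751, 714 and 737 normalised reads after ELF4 siRNA, against 822, 851 and 879 after control siRNA (log2 fold change -0.21, adjusted p = 0.00454). NDUFAF6, a factor of early assembly, had 427, 413 and 394 normalised reads after ELF4 siRNA, against 485, 450 and 511 after control siRNA (log2 fold change -0.23, adjusted p = 0.0129). The NDUFAF6 call was lost without control replicate 3 (0.0727), and with upper-quartile scaling the NDUFAF5 and NDUFAF6 calls were both lost, leaving 2 of 7 lower. NDUFAF7, a methyltransferase, had a log2 fold change of -0.16 (adjusted p = 0.0735). NDUFAF3 had -0.02 and NDUFAF1, which works in early membrane arm assembly, 0.05, and neither passed. C17orf89, an older symbol of NDUFAF8 in RefSeq and therefore outside the naming rule, had -0.09 and did not pass.

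For 11 members, and for NDUFA13, which has no row of its own, the table splits the reads between a row with the gene's name alone and rows in which several names are joined, as happens where annotated genes overlap. In 6 of these members the row with the name alone held less than 50% of the summed reads, and their values above rest on that share. NDUFC2, an accessory subunit of the proximal membrane arm, is the called member this touches most. Its own row, 28.2% of its reads, had 908, 679 and 826 normalised reads after ELF4 siRNA, against 1190, 1097 and 1315 after control siRNA (log2 fold change -0.58, SE 0.09, limma adjusted p = 0.000128). The row it shares with the read-through gene NDUFC2-KCTD14 had 2481 ± 117 after ELF4 siRNA and 2628 ± 90.7 after control siRNA and did not pass (log2 fold change -0.08, adjusted p = 0.17). Summed over both rows, NDUFC2 had 3285 ± 89.1 after ELF4 siRNA and 3829 ± 186 after control siRNA. The summed level still fell, by 0.22 on the log2 scale (adjusted p = 0.00117), a much smaller change than in the own row.

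NDUFA11, of the proximal membrane arm, had 6.61, 12.3 and 10.3 normalised reads in its own row after ELF4 siRNA, against 7.54, 14.9 and 7.79 after control siRNA, and nearly all of its reads lay in a row shared with FUT5. Summed, it reached 3035 ± 145 after ELF4 siRNA and 2775 ± 79.0 after control siRNA, which passed as higher (log2 fold change 0.13, adjusted p = 0.0335), whereas its own row had -0.02 and did not pass. NDUFV2, a core iron-sulfur subunit beside NDUFV1, was not tested in its own row, which had 0, 3.37 and 4.14 normalised reads after ELF4 siRNA, against 1.88, 4.57 and 1.42 after control siRNA. Its summed level was 1862 ± 91.0 after ELF4 siRNA and 1692 ± 72.7 after control siRNA (log2 fold change 0.14, adjusted p = 0.0392). NDUFA9, a subunit near the quinone site, did not pass in its own row (-0.13) but fell when summed, to 2584 ± 124 after ELF4 siRNA, against 2945 ± 84.3 after control siRNA (log2 fold change -0.19, adjusted p = 0.00388). NDUFA13, of the proximal membrane arm and also known as GRIM-19, had 3298 ± 144 summed normalised reads after ELF4 siRNA and 3242 ± 169 after control siRNA and did not pass (log2 fold change 0.02). NDUFC1, of the proximal membrane arm, had 1257, 1254 and 1160 normalised reads in its own row after ELF4 siRNA, against 1503, 1306 and 1432 after control siRNA. That row fell (log2 fold change -0.21, adjusted p = 0.00981). The call was lost without control replicate 1 (0.0659), with upper-quartile scaling (0.0875) and with limma without trend (0.0656). With summed rows, 8 members rose and 11 fell.

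**Figure D3:**
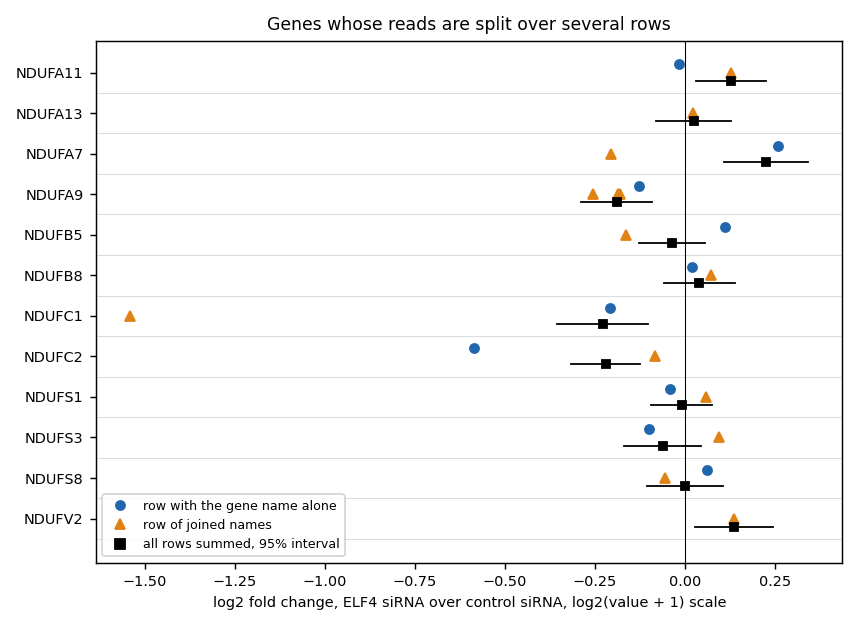
Log2 fold change, ELF4 siRNA over control (x axis), for the 12 genes whose reads are split over rows. Circles are the row with the gene name alone, triangles the rows of joined names, squares all rows summed with the 95% interval. NDUFC2 moves to -0.22 when its rows are summed, against -0.58 in its own row, and NDUFA11 moves to 0.13, against -0.02.

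Summed over the members of each arm, the groups moved by less than most single calls. Each sum is dominated by its most abundant members, and no test was made. Only rows with the gene name alone were summed, so reads in rows of joined names are left out. In the control libraries the joined rows of NDUFA11, NDUFC2, NDUFS1, NDUFV2 and NDUFB5 had means of 2765, 2628, 2057, 1690 and 1632. The joined rows of NDUFA9 had means of 831, 485 and 905, and further joined rows were smaller than the first 5. NDUFA13, with 3242 summed normalised reads in these libraries, is also left out. The 7 NDUFAF genes together had 5410, 5066 and 5176 normalised reads after ELF4 siRNA, against 5762, 5826 and 6114 after control siRNA, a level of 88.4% of control. The quinone-binding arm reached 94.4% of control, the proximal membrane arm 94.1%, the distal membrane arm 97.4% and the NADH-oxidising arm 102%. All 44 members together had 86988, 87814 and 86672 normalised reads after ELF4 siRNA, against 90178, 90442 and 89223 after control siRNA, which is 96.9% of control as deposited and 103% after upper-quartile scaling. With that scaling the assembly factors stood at 93.9%, the quinone-binding arm at 100.2%, the proximal membrane arm at 99.99%, the distal membrane arm at 103% and the NADH-oxidising arm at 108%, so the sums of the quinone-binding and distal membrane arms also changed direction.

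**Figure D4:**
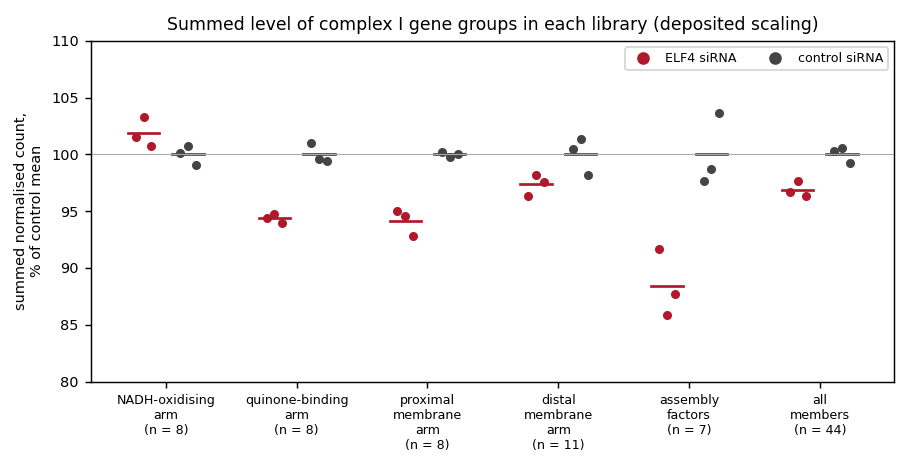
Summed normalised read count of each group of complex I genes in each library, from rows with the gene name alone. The y axis is percent of the control mean (from 80 to 110), with ELF4 siRNA left of control siRNA and lines at the means. The assembly factors lie lowest after ELF4 siRNA, at 88.4% of control, and the NADH-oxidising arm at 102%, with the deposited scaling.

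Per kilobase of transcript, subunits of the distal membrane arm had the 2 highest levels and assembly factors the 3 lowest. Lengths are those of the longest principal transcript in GENCODE 29, and 35 members with at least 90% of their reads in their own row were ranked. NDUFB4 stood first with 6030 normalised reads per kilobase after ELF4 siRNA and 5944 after control siRNA, followed by NDUFB9 with 6008 and 5812. NDUFAF5 stood last with 133 and 154, below NDUFAF6 with 229 and 268 and NDUFAF7 with 244 and 273. NDUFAF2 was an exception among the assembly factors, with 1522 normalised reads per kilobase after ELF4 siRNA and 1819 after control siRNA.

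Assembly factors without an NDUF name moved in both directions. Among the 14 tested, 5 were lower, 2 were higher and the other 7 missed the threshold. Of all rows tested, 24.4% were lower and 20.7% higher. TMEM126B, a membrane protein of the complex that assembles the proximal membrane arm, fell to 766 ± 31.4 after ELF4 siRNA, against 1188 ± 75.3 after control siRNA (log2 fold change -0.63, adjusted p = 1.09e-06). Its paralogue TMEM126A fell to 477 ± 6.96, against 814 ± 20.3 (log2 fold change -0.77, adjusted p = 8.25e-08). The libraries of the groups did not overlap in either gene. The 2 that were higher were TIMMDC1 (log2 fold change 0.28, limma adjusted p = 0.000371) and FOXRED1 (0.24, limma adjusted p = 0.00549). ACAD9 (-0.09) and ECSIT (0.03) were among those that missed the threshold.

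The mitochondrial genes for the core membrane subunits have no rows of their own and appear only joined with neighbouring genes. The row of MT-ND2 with 2 transfer RNAs had 98394, 96389 and 92039 normalised reads after ELF4 siRNA, against 81299, 80839 and 83386 after control siRNA, and rose (log2 fold change 0.22, adjusted p = 0.000295). The row of MT-ND6 fell (log2 fold change -0.13, adjusted p = 0.026). The row of MT-ND1 (-0.01) and the row that joins MT-ND3, MT-ND4, MT-ND4L and MT-ND5 with other genes (-0.02) did not pass.

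Among the other NDUF rows, NDUFA4L2, a paralogue of NDUFA4 known for its induction in low oxygen, was low in both groups. It had 12.1, 11.2 and 12.4 normalised reads after ELF4 siRNA, against 37.7, 14.9 and 41.1 after control siRNA, where control replicate 2 lay near the ELF4 siRNA libraries (log2 fold change -1.19, adjusted p = 0.00647).

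The other respiratory complexes held counts of a similar kind. Complexes II to V had 63 tested genes, with 11 higher (17.5%), 15 lower (23.8%) and 37 that missed the threshold. Over all rows tested, 20.7% were higher and 24.4% lower. The median log2 fold change of these 63 genes was -0.02. Complex II had 2 of 8 lower, SDHD (-0.29, adjusted p = 0.00107) and SDHB (-0.15, adjusted p = 0.0225), and 0 higher. Complex III had 3 of 15 higher and 3 lower, among them UQCRQ (-0.27) and UQCC2 (-0.36). Complex IV had 4 of 22 higher and 6 lower, with COA6 at -0.58 and COX11 at -0.45, both of them factors for its copper sites. Complex V had 4 of 18 higher and 4 lower, with ATP5D at 0.43 and ATP5E at -0.42, both subunits of the central stalk. These counts moved with the settings. With upper-quartile scaling, 6 genes of complex III were higher, and complex V had 7 higher and 1 lower. With limma without trend, 0 genes of complex III and 1 of complex IV were higher, and 1 of complex V was lower. Complex III had 1 higher without control replicate 1 or 3. Complex IV had 1 higher without ELF4 siRNA replicate 2, and 2 without ELF4 siRNA replicate 1 or any 1 of the control libraries. Complex V had 2 lower without ELF4 siRNA replicate 3, control replicate 1 or control replicate 3. Whether any of these complexes differs from complex I was not tested.

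The 12 listed regulators of mitochondrial biogenesis included 6 that fell and 1 that rose. The same rule called 24.4% of all rows tested lower and 20.7% higher. Among rows with a mean of at least 100, fitted on their own, 4424 of 13056 were lower and 3353 higher. The regulators' median log2 fold change was -0.15. TFAM, which packages and transcribes mitochondrial DNA, had 1430, 1246 and 1190 normalised reads after ELF4 siRNA, against 1981, 1662 and 2036 after control siRNA (log2 fold change -0.55, adjusted p = 5.33e-05). GABPB1, the partner of an ETS factor that acts on many respiratory genes, had 863, 809 and 864 normalised reads after ELF4 siRNA, against 1234, 1212 and 1249 after control siRNA (log2 fold change -0.54, adjusted p = 1.01e-06). In both genes every ELF4 siRNA library was below every control library. Of 14 genes for iron-sulfur cluster supply, 4 fell and 2 rose, with HSPA9 at -0.41 and GLRX5 at -0.37. Of 14 genes for ubiquinone and other electron carriers, 4 rose and 3 fell, with ETFB at 0.55 and ADCK3, a coenzyme Q gene now called COQ8A, at 0.49.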

How the data were processed

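Poly(A) RNA of 6 libraries, 3 per group, was measured by RNA-seq. The authors deposited 1 table of normalised counts (a signal: reads divided by a size factor per library). TopHat, featureCounts, DESeq2 and hg19 are named, without roles or versions, per the submitters' processing notes. Whether counting used strand is not given in the sources used here. Whole reads were recovered from the deposited values in all libraries (100% of values whole within 0.001), with 23148635 to 38097986 reads per library, and 2148 of 26906 rows carry joined gene names.

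Values were tested as log2(value + 1) with limma 3.58.1 (trend) in R 4.3.3, over the 20339 rows with at least 10 in at least 3 libraries, with Benjamini-Hochberg adjustment over all of them and a threshold of 0.05. Fold changes are on this scale and understate changes of low genes. edgeR 4.0.16 and DESeq2 1.42.0 on the recovered reads were alternatives, as were other pseudocounts, filters and scalings, a replicate block, leaving out each library, and summing rows of joined names. The scripts were tested on simulated data.

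Members and gene lists were chosen with earlier results of these data known, so adjusted p-values are given over all rows only. Values per library are given for the 14 called members with the largest changes, the 3 highest, the 3 lowest, NDUFA4 and NDUFAB1, and from each other list the 2 genes with the smallest adjusted p are named. CHCHD4, AIFM1, TIMMDC1, FOXRED1, ACAD9, ECSIT and the rows of NDUFA6-AS1 and NDUFA4L2 were named after their values were seen. The same holds for the markers HAND2, ISL1, DBH, MYCN and GFAP. Promoter strings were searched in RefSeq sequences of GRCh38.p14, a build other than that of the files, matched by symbol. The individual values of 1 member are not reported here.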

Additional observations from a re-analysis of the deposited data

How the results depend on the processing

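The count of complex I members that rose was 6. It was 14 with upper-quartile scaling and 3 with limma without trend, 7 with edgeR and 5 with DESeq2, and 3 to 8 when each library was left out in turn, with 3 both without ELF4 siRNA replicate 2 and without control replicate 3. The count that fell was 10, with 7 under upper-quartile scaling, 10 with edgeR and with DESeq2, and 9 to 11 when each library was left out. Upper-quartile scaling moved all rows by 0.0864 at the median; over all rows it gave 5939 higher and 3597 lower, against 4217 and 4956. Same-numbered libraries deviated together weakly (correlations 0.029, 0.0748 and 0.041, none above 0.1). These values were still above those of differently numbered libraries, which ran from -0.0572 to 0.0152. The main fit did not take the numbers as pairs, and a shared replicate effect may be present. With a replicate block, 8 members rose and 13 fell, and over all rows 4564 were higher and 5346 lower. NDUFA11 reversed to 0.13 (log2 fold change) when its joined row was added, since its own row holds 0.341% of its reads. Over single genes and alternatives, 722 values stayed on their side of the threshold, 24 newly passed, 23 no longer passed, and that of NDUFA11 passed with the opposite sign. Of the 722, 28 crossed zero, all in changes that did not pass. Counts for the other respiratory lists are small and moved too, with complex II at 0 to 2 higher and 1 to 2 lower, iron-sulfur supply at 1 to 3 higher and the assembly factors without an NDUF name at 1 to 4 higher. NDUFB6, NDUFA8 and NDUFB10 passed in every alternative run, with ranges of -0.80 to -0.65, -0.69 to -0.58 and -0.36 to -0.25. The calls of NDUFA3, NDUFB11 and NDUFV1 were each lost in several. The log2 fold change of ELF4 lay between -3.18 and -2.30. It was not tested where a control library was left out or rows with a mean under 100 were removed, because it then missed the filter. The median SE of the members, 0.0523 on the log2 scale, limits what 3 libraries per group can show.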

Other observations

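The 7-letter strings ACCTGTC and CCTGTCA were searched in the 3′ UTRs of the members, taking them from an earlier look at these data in which they had been picked for their association with the change. They were found in 3 of 42 members (7.14%), NDUFA6, NDUFS1 and NDUFV3, against 1874 of 9839 genes with a mean of at least 100 (19.0%). These 3 differ in direction, with log2 fold changes of -0.24, -0.04 and 0.16. Neither string occurs in NDUFB6, NDUFA8, NDUFC2 or NDUFB10, the 4 members with the largest falls in their own rows. A longer 3′ UTR has more places for such a string, and length was not matched. The 3′ UTRs of NDUFS1, NDUFV3 and NDUFA6 have 9368, 4283 and 658 bases. Those of NDUFB6, NDUFA8, NDUFC2 and NDUFB10 have 877, 183, 1683 and 69. The shares and the absences therefore cannot be read apart from length.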
